A study of Mus musculus with 6 samples.

Results

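Eosinophil granule proteins and ribonucleases are given here as 8 genes, Prg2, Prg3, Epx, Ear1, Ear2, Ear3, Ear6 and Ear12, taken by name from a table of 17909 genes. All 8 were in the table. Ear3 and Ear12 held identical values in every library and are treated as 1 signal, which leaves 7. They were followed in bulk RNA of cells sorted from C57BL/6xFVB mouse embryos with Cre expressed from Csf1r (Csf1r-iCre). The Cre is used to mark the descendants of erythro-myeloid progenitors (EMPs), a descent that these libraries do not test. The libraries are macrophages of the fetal liver at E11.5, mast cell progenitors (MCPs) of the fetal liver at E11.5, MCPs of the limb at E11.5 and at E14.5, cells of the skin at E16.5 that the labels call both MCPs and mast cells, and EMPs of the fetal liver at E11.5. Every group carries the same Cre and background and held 1 library, so the study gives no spread between replicates, no standard error and no test. All differences below describe these 6 libraries. The sources used here do not say how many embryos went into each library or how the gates were set, beyond the names LiB7_pos for liver MCPs and LiB7_neg for EMPs.

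Eosinophils are granulocytes that pack their granules with cationic proteins while they are still immature, so the mRNAs of these proteins mark eosinophil precursors in blood-forming tissue. Prg2 encodes major basic protein and Prg3 its homologue. Epx encodes eosinophil peroxidase, which makes hypohalous acids. The Ear genes encode eosinophil-associated ribonucleases of the ribonuclease A family, the mouse counterparts of human eosinophil-derived neurotoxin and eosinophil cationic protein. Some Ear transcripts, those of Ear1 and Ear2 among them, are also known from mouse lung macrophages.

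The values are FPKM, the fragments of a gene scaled for the length of its transcript and for all mapped fragments of the library. Estimated from the steps between values, the libraries held between 8550000 and 11950000 mapped fragments. Genes with an FPKM of at least 1 numbered 8270 to 8754 in 5 libraries and 5675 in the skin library. The labels of both liver libraries compared most below were checked against marker lists. Of 17 macrophage markers in the table, 13 reached an FPKM of 1 anywhere and 11 of these were highest in the macrophage-labelled library. Their median there was 2.92 FPKM, against 73.2 for 19 neutrophil markers in the same library. Among defining macrophage markers, Csf1r read 34.1 FPKM and Adgre1 18.4 FPKM in it, while Cd163 read 0.02 FPKM and Vsig4 was listed at 0. The whole macrophage list summed to 2764 FPKM in it, of which Lyz2 gave 2633, and to 256 FPKM in EMPs. All 4 monocyte markers were highest in it, with a median of 48.8 FPKM. In the EMP library 7 progenitor markers summed to 296 FPKM and the neutrophil markers to 10506. Kit, the stem cell factor receptor of progenitors and mast cells, read 41.7 FPKM in EMPs and 95.3 in liver MCPs. The macrophage library is therefore called macrophage-labelled throughout, and EMPs is likewise used as a label only.

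The eosinophil genes were concentrated in the macrophage-labelled liver library. The 7 signals summed to 10138 FPKM there, 6.29% of the library's whole FPKM sum. They summed to 84.1 FPKM in liver MCPs, 94.6 in limb MCPs at E11.5, 0.03 in limb MCPs at E14.5, 1.86 in skin cells and 250 in EMPs. Bulk RNA cannot tell fewer cells of a type from less RNA per cell.

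**Figure D1:**
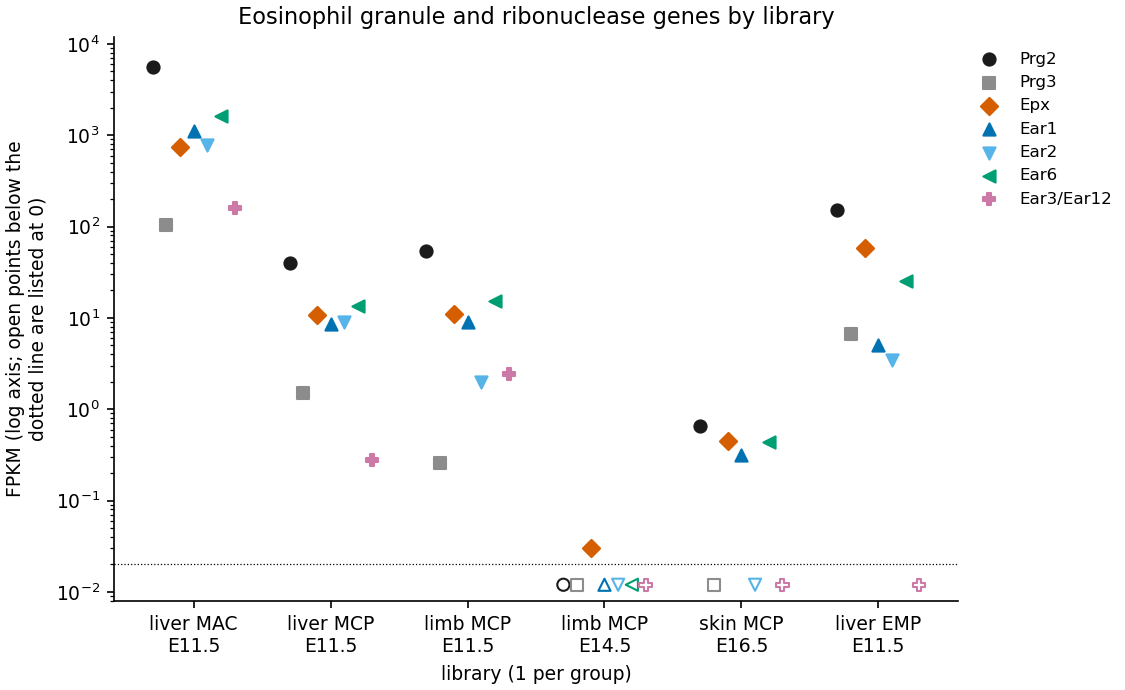
FPKM (log axis) of the 7 signals in the 6 libraries, 1 point per gene and library, with open points below the dotted line for genes listed at 0. The macrophage-labelled library lies highest for every signal, from 103 FPKM for Prg3 to 5617 FPKM for Prg2, and limb MCPs at E14.5 hold only Epx at 0.03 FPKM.

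Prg2, which encodes the main protein of the eosinophil granule core, was the most abundant of all 17909 genes in the macrophage-labelled library. It read 5617 FPKM there, 40.4 in liver MCPs, 54.1 in limb MCPs at E11.5, 0 in limb MCPs at E14.5, 0.65 in skin cells and 151 in EMPs. Its rank among all genes was 610 in liver MCPs, 403 in limb MCPs at E11.5, 6539 in skin cells and 150 in EMPs. The macrophage-labelled library stood apart from all others, EMPs came second, and both progenitor libraries of E11.5 lay close together. The skin value amounts to an estimated 4.9 fragments. The listing at 0 in limb MCPs at E14.5 allows up to 0.323 FPKM, the worth of 3 fragments (counting error only). On GRCm38 the gene lies on the plus strand of chromosome 2, from 84980461 to 84983632, with 6 exons in its annotated transcript.

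Prg3, the homologue, starts 4582 bases downstream of the end of Prg2 on the same strand (84988215 to 84993886) and was far less abundant. It read 103 FPKM in the macrophage-labelled library, 1.51 in liver MCPs, 0.26 in limb MCPs at E11.5 and 6.71 in EMPs, and was listed at 0 in limb MCPs at E14.5 and in skin cells. In order of libraries it differed from Prg2 in that liver MCPs were above limb MCPs at E11.5, where the value rests on an estimated 2.1 fragments. Prg2 exceeded Prg3 by 54.5-fold in the macrophage-labelled library, 26.7-fold in liver MCPs and 22.5-fold in EMPs. No window of 50 bases was shared between the annotated transcripts of Prg2 and Prg3, which aligned at 67.3% identity.

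Epx read 737 FPKM in the macrophage-labelled library, 10.85 in liver MCPs, 11.2 in limb MCPs at E11.5, 0.03 in limb MCPs at E14.5, 0.45 in skin cells and 57.7 in EMPs. Its order of libraries was that of Prg2, the MCPs of liver and limb at E11.5 being practically level. The value in limb MCPs at E14.5 is an estimated 0.9 fragments, and that in skin cells 10.9. The gene lies on the minus strand of chromosome 11, from 87864000 to 87875536, with 13 exons. It belongs to a small cluster of heme peroxidases: Mpo, the myeloperoxidase of neutrophil and progenitor granules (87793581 to 87804413), ends 59586 bases from it, and Lpo, lactoperoxidase, lies between them (87806428 to 87828289).

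Epx and Mpo were highest in different libraries. Mpo read 3621 FPKM in the macrophage-labelled library, 878 in liver MCPs, 417 in limb MCPs at E11.5, 1.25 in limb MCPs at E14.5, 1.03 in skin cells and 8174 in EMPs. Mpo peaked in EMPs, and Epx in the macrophage-labelled library. The ratio of Mpo to Epx was 4.92 in the macrophage-labelled library, 80.9 in liver MCPs, 37.3 in limb MCPs at E11.5 and 142 in EMPs. Lpo did not exceed 1.4 FPKM in any of the 6 libraries.

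The ribonucleases share much of their sequence, which bears on how fragments can be assigned. Ear1, Ear2 and Ear6 were found in the GENCODE M21 annotation, all on chromosome 14: Ear1 on the minus strand (43818765 to 43875517), Ear2 on the plus strand (44102654 to 44103534) and Ear6 on the plus strand some megabases away (51853699 to 51854643). Their main transcripts have 2 exons each and are 713, 719 and 713 bases long in that order. The transcripts of Ear1 and Ear2 aligned at 96.8% identity, and those of Ear6 with them at 88.8% and 89.2%. Of the 50-base windows of Ear1, 23.8% occurred unchanged in Ear2 and 1.36% in Ear6. Ear10, a further paralogue, shared 26.0% of the windows of Ear2. Ear3 and Ear12 were not matched in this annotation, and their sequences are not given. The opening 90 bases of the 3 coding sequences are shown to make this likeness visible, 5′ to 3′, with capitals at the 11 positions where they are not all the same.
Ear1: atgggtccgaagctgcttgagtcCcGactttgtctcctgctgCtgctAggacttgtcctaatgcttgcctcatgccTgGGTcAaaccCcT
Ear2: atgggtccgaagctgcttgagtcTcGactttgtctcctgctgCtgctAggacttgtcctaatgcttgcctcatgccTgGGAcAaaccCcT
Ear6: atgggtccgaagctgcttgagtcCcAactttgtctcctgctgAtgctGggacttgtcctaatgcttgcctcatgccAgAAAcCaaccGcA
The coding sequences were taken as the longest reading frames of the GENCODE M21 transcripts. In this stretch Ear2 differed from Ear1 at 2 positions, and Ear6 differed from Ear1 at 10.

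Ear6 was the most abundant ribonuclease of the group. It read 1632 FPKM in the macrophage-labelled library, 13.4 in liver MCPs, 15.45 in limb MCPs at E11.5, 0 in limb MCPs at E14.5, 0.44 in skin cells and 25.6 in EMPs. It followed the library order of Prg2 and Epx. Of the annotated Ear members it shared the fewest windows with the other Ear transcripts compared (Ear1, Ear2 and Ear10), 1.36%. Ear3, Ear7, Ear12 and Ear14 were not compared, so sharing with them is unknown.

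Ear1 and Ear2 had another order, with EMPs below liver MCPs. Ear1 read 1111 FPKM in the macrophage-labelled library, 8.64 in liver MCPs, 9.13 in limb MCPs at E11.5, 0 in limb MCPs at E14.5, 0.32 in skin cells and 5.07 in EMPs. Ear2 read 780 FPKM in the macrophage-labelled library, 9.01 in liver MCPs, 2 in limb MCPs at E11.5 and 3.48 in EMPs, and was listed at 0 in limb MCPs at E14.5 and in skin cells. The split between these near-identical genes is uncertain, and the skin value of Ear1 is an estimated 2.1 fragments. The single signal of Ear3 and Ear12 read 158 FPKM in the macrophage-labelled library, 0.28 in liver MCPs and 2.43 in limb MCPs at E11.5, and was listed at 0 in the other 3 libraries, EMPs included.

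Summed, the ribonuclease signals came to 3681 FPKM in the macrophage-labelled library, 31.3 in liver MCPs, 29.0 in limb MCPs at E11.5, 0 in limb MCPs at E14.5, 0.76 in skin cells and 34.15 in EMPs. Taken as 1 signal, the 3 libraries that follow the macrophage-labelled one were therefore nearly level, whereas for Prg2 EMPs were well above both progenitor libraries.

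The make-up of the eosinophil signal differed between EMPs and the other libraries that held it. The ribonucleases made up 36.3% of the members' summed FPKM in the macrophage-labelled library, 37.2% in liver MCPs, 30.7% in limb MCPs at E11.5 and 13.7% in EMPs. Epx made up 7.27%, 12.9%, 11.8% and 23.1% in the same libraries. Prg2 held the largest share in all 4, between 48.0% in liver MCPs and 60.5% in EMPs. Among the ribonucleases Ear6 exceeded Ear1 by 1.47-fold in the macrophage-labelled library, 1.55-fold in liver MCPs, 1.69-fold in limb MCPs at E11.5 and 5.05-fold in EMPs. The value of Ear1 in EMPs corresponds to an estimated 43.2 fragments. These shares are of FPKM, and with 1 library per group their difference was not tested.

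**Figure D2:**
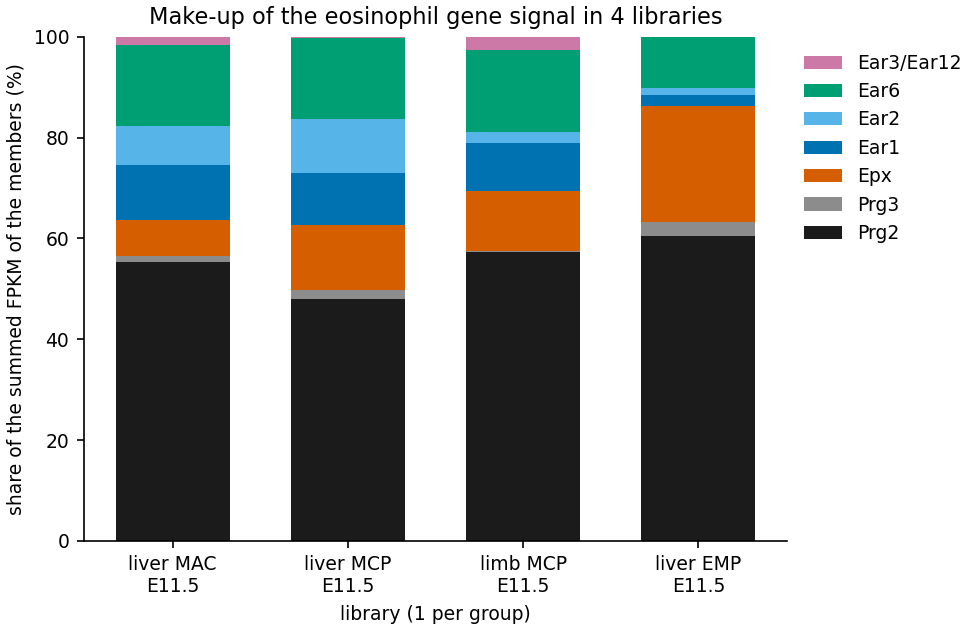
Share of each signal in the summed FPKM of the members (vertical, in percent, from 0), for the 4 libraries whose sum exceeded 80 FPKM. The blue, green and pink parts are ribonucleases, which take 36.3% in macrophage-labelled cells and 13.7% in EMPs, where Epx (orange) takes 23.1%.

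The macrophage-labelled library was set against EMPs to describe how cells with these labels differ in the fetal liver at E11.5. Prg2 was 37.2-fold higher (5617 against 151 FPKM), Epx 12.8-fold (737 against 57.7), Prg3 15.4-fold (103 against 6.71) and Ear6 63.7-fold (1632 against 25.6). Ear1 was 219-fold higher (1111 against 5.07) and Ear2 224-fold (780 against 3.48). These 3 ribonucleases thus differed by more than the peroxidase and the basic proteins. The call used here asks for a log2(FPKM + 1) difference of 2 or more in a gene that reached 10 FPKM in at least 1 of the pair. By it, 2.39% of the 3179 genes that reached this level were called higher and 0.661% lower. All 7 signals passed and were called, with a median difference of 5.94 on that scale against −0.29 over all genes that passed. Only 3 of them, Prg2, Epx and Ear6, had at least 10 FPKM in both libraries. The other 4 passed through the macrophage-labelled library alone, so the direction of their difference was fixed by the filter, though not its size. Of the macrophage markers 3 of the 5 that passed were called higher, and of the monocyte markers 3 of 4. Of the neutrophil markers 8 of the 15 that passed were called higher, with 0 lower in these lists. Called markers that passed through the macrophage-labelled library alone were Ly6c2, Ccr2 and Fn1 (monocyte) and Adgre1 and Ctss (macrophage). Among called neutrophil markers the same held for Ltf, Mmp8 and Itgb2l. The neutrophil list summed to 8360 FPKM in macrophage-labelled cells and 10506 in EMPs, Mpo being its main gene in EMPs. The part of these markers in the result was not tested.

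Against liver MCPs the differences were larger than against EMPs for the basic proteins, Epx and Ear6, and smaller for Ear1 and Ear2. Prg2 was 139-fold higher in the macrophage-labelled library (5617 against 40.4 FPKM), Epx 67.9-fold (737 against 10.85) and Prg3 68.3-fold (103 against 1.51). Ear6 was 122-fold higher (1632 against 13.4), Ear1 129-fold (1111 against 8.64) and Ear2 86.6-fold (780 against 9.01). All 7 signals were called, where 5.99% of 3254 genes were called higher and 3.72% lower, and here too 3 passed the filter in both libraries. The comparison shares the macrophage-labelled library with the one against EMPs, so the pair are not independent. All 15 neutrophil markers that passed were called higher as well, with sums of 8360 FPKM in the macrophage-labelled library and 1059 in liver MCPs. Only Mpo, Elane, Prtn3, Lcn2, Ngp, S100a8 and S100a9 among them reached 10 FPKM in both libraries. The rest passed through the macrophage-labelled library alone. Of the other lists, 3 of 4 monocyte and 4 of 6 macrophage markers that passed were called higher. In turn 4 of 5 mast cell, 4 of 6 progenitor and 3 of 4 erythroid markers were called lower. Of the called markers in these other lists, only Lyz2 and Cpa3 reached 10 FPKM in both libraries. The part of all these lists in the result was not tested.

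Liver MCPs and EMPs both held these genes at levels far under those of the macrophage-labelled library. Epx was 0.188 times its EMP value in liver MCPs (10.85 against 57.7 FPKM) and was the single member called lower, where 3.09% of 3369 genes were called lower and 1.78% higher. This call ended with a pseudocount of 5. Prg2 stood at 40.4 FPKM in liver MCPs and 151 in EMPs, a log2 difference of −1.88 that missed the threshold, and Ear6 at 13.4 and 25.6. The other 4 signals were under 10 FPKM in both. Of these, Prg3 read 1.51 in liver MCPs and 6.71 in EMPs, whereas Ear1 (8.64 and 5.07) and Ear2 (9.01 and 3.48) were higher in liver MCPs. Neutrophil markers were called lower in liver MCPs for 8 of the 12 that passed, with sums of 1059 FPKM in liver MCPs and 10506 in EMPs. Of these 8, Ctsg, Fcnb, Ms4a3 and Csf3r passed through the EMP library alone. The part of the neutrophil markers in the result was not tested.

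Limb MCPs of E11.5 and liver MCPs of the same day held 4 of the 7 signals at like levels. Prg2 read 54.1 FPKM in the limb and 40.4 in the liver, Epx 11.2 and 10.85, Ear6 15.45 and 13.4, and Ear1 9.13 and 8.64. Of the 3 signals that passed the filter 0 were called, where 1.18% of 3136 genes were called higher and 2.04% lower. The other 3 were unlike and under the filter: Ear2 was lower in the limb (2 against 9.01 FPKM), Prg3 was lower too (0.26 against 1.51), and the signal of Ear3 and Ear12 was higher (2.43 against 0.28). Relative to the macrophage-labelled library, the 7 signals stood between 0.252% for Prg3 and 1.54% for Ear3 and Ear12 in the limb, and between 0.177% for Ear3 and Ear12 and 1.47% for Epx in liver MCPs. In EMPs the signals above 0 stood between 0.446% for Ear2 and 7.83% for Epx. Neutrophil markers, which summed to 490 FPKM in limb MCPs at E11.5 and 1059 in liver MCPs, were present in both libraries.

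In limb MCPs the eosinophil genes were at or next to 0 by E14.5. Prg2 was listed at 0 at E14.5 against 54.1 FPKM at E11.5, Ear6 at 0 against 15.45, and Epx read 0.03 against 11.2. These 3 passed the filter and were called lower, where 1.75% of 2970 genes were called lower and 2.39% higher. The 3 passed through the E11.5 library alone, so their count adds nothing to the values. The call of Epx ended with a pseudocount of 5, those of Epx and Ear6 with a minimum of 30 FPKM, and 6 signals were called after rescaling to equal sums. Ear1 was listed at 0 at E14.5 against 9.13 FPKM, and Ear2, Prg3 and the signal of Ear3 and Ear12 were at 0 against 2, 0.26 and 2.43. Neutrophil markers summed to 2.45 FPKM at E14.5 and 490 at E11.5, with 11 of 19 listed at 0 at E14.5, and Mpo read 1.25 against 417. Mast cell markers summed to 3807 FPKM at E14.5 and 824 at E11.5. Whether these changes are linked was not tested.

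Skin cells of E16.5 and limb MCPs of E14.5, which differ in tissue and age at once, both lay near 0. Prg2 read 0.65 FPKM in skin cells against 0 in the limb, Epx 0.45 against 0.03, Ear6 0.44 against 0 and Ear1 0.32 against 0. No signal passed the filter, while 33.4% of 2759 genes were called lower in skin cells and 1.78% higher. The skin library had fewer genes above 1 FPKM than the others, so a listing at 0 there does not show that a transcript was absent.

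Seen across all genes, the members were among the genes that stood highest in the macrophage-labelled library relative to the rest. Of the 4016 genes that reached 10 FPKM anywhere, 14.8% had their highest value there. When these were ordered by (FPKM + 1) in that library over the highest of the other 5, Ear1 was at place 1 with a ratio of 110, followed by Ear2 (78.0), Ear6 (61.4) and the signal of Ear3 and Ear12 (46.4). With Ear3 and Ear12 each taking a place, Prg2 was at place 6 (37.0), Prg3 at 13 (13.5) and Epx at 15 (12.6). The genes that came between and after them were Ngp, neutrophilic granule protein (693 against at most 18.15 FPKM elsewhere), Ltf, lactoferrin (73.2 against 1.38), the stefin genes Stfa3, Stfa2l1 and Stfa2, cysteine protease inhibitors of myeloid cells (212, 558 and 137 against at most 6.62, 26.8 and 8.72), Lcn2, lipocalin 2 (281 against 16.1), and Cybb, the catalytic chain of the phagocyte NADPH oxidase (159 against 11.1). Lyz2, lysozyme (2633 against 227), Ctsh, cathepsin H (24.5 against 1.36), and Rnase2b, a further ribonuclease of the same family (10.98 against 0.16), completed the leading 10 non-members. Of 19 neutrophil markers, 13 were highest in the macrophage-labelled library. The others were highest in EMPs, among them Mpo, with its values given above, and 3 further granule genes. Elane, neutrophil elastase, read 732 FPKM in macrophage-labelled cells against 1166 in EMPs. Prtn3, proteinase 3, read 184 against 383 and Ctsg, cathepsin G, 25.95 against 86.1. This order describes levels, with no test. Prg3, Ear1, Ear2 and the signal of Ear3 and Ear12 reached 10 FPKM in the macrophage-labelled library alone. Their entry into the order and their high places in it are therefore linked. The places of single Ear genes also rest on the uncertain split between paralogues.

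**Figure D3:**
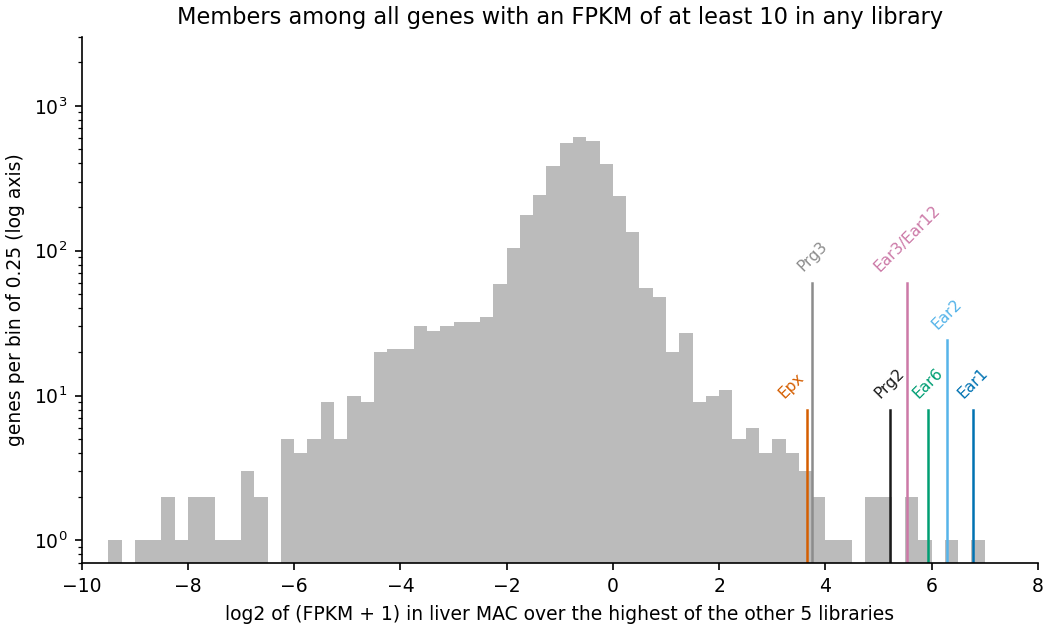
Number of genes (vertical, log axis) by the log2 ratio of FPKM + 1 in the macrophage-labelled library over the highest of the other 5 libraries (horizontal), for the 4016 genes that reached 10 FPKM. Coloured lines mark the 7 signals, which all lie at the right end, from 3.65 for Epx to 6.78 for Ear1. Prg3, Ear1, Ear2 and Ear3/Ear12 reached 10 FPKM in the macrophage-labelled library alone.

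The genes whose pattern over the 6 libraries was most like Prg2 were picked by Pearson's r of log2(FPKM + 1) among 3937 candidates. Each r rests on 6 libraries, shares those libraries and their depth with every other r, and is given as a description. Within the group, r with Prg2 was 0.993 for Epx, 0.988 for Ear6, 0.941 for Ear1, 0.912 for Ear2, 0.911 for Prg3 and 0.810 for Ear3 and Ear12. Outside it, Rnasek had 0.998, but its level ranged only between 20.1 and 46.6 FPKM. It was followed by AB124611 (0.997), Aoah, an enzyme that inactivates bacterial lipopolysaccharide (0.991), Sema4a, a semaphorin (0.985), Lyz2 (0.985), the interferon-induced gene Ifitm3 (0.982), the histone demethylase gene Kdm7a (0.982), Itgam, the CD11b integrin chain (0.980), Ifi202b (0.979) and Cybb (0.979). The 10 genes most like Epx shared 6 with this set and added Klf5 (0.991), Gapt (0.984), the kinase gene Sgk3 (0.983) and Rab5b, an endosomal GTPase (0.983).

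Genes that act on eosinophil formation and function were read alongside, as a list of 26. Against EMPs, 2 of the 13 that passed the filter were called higher in the macrophage-labelled library and 1 lower, with a median difference of 0.50 on the log2(FPKM + 1) scale. Against liver MCPs 5 of 14 were called higher and 1 lower, with a median of 0.86. Of all these called genes only Spi1, against liver MCPs, reached 10 FPKM in both libraries of its pair. The background shares in these comparisons were 2.39% higher and 0.661% lower against EMPs, and 5.99% higher and 3.72% lower against liver MCPs.

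Surface receptors of eosinophils were uneven. Siglecf, a sialic acid-binding receptor of mouse eosinophils, read 39.5 FPKM in the macrophage-labelled library, 6.03 in liver MCPs, 4.74 in limb MCPs at E11.5, 0.77 in limb MCPs at E14.5, 8.09 in skin cells and 18.7 in EMPs. It was highest in the macrophage-labelled library and was called against liver MCPs, though not against EMPs. Il5ra, the alpha chain of the interleukin 5 receptor, read 5.04 FPKM in the macrophage-labelled library, 6.64 in skin cells, and between 0.55 and 1.5 in the other 4. Ccr3, the eotaxin receptor, did not exceed 0.91 FPKM anywhere. Csf2rb, the shared beta chain of the receptors for interleukin 3, interleukin 5 and GM-CSF, lay between 53.4 and 99.8 FPKM in all 6 libraries.

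Among enzymes, Alox15, a lipoxygenase of eosinophils and some macrophages, read 27.3 FPKM in the macrophage-labelled library, 2.28 in limb MCPs at E11.5 and 0.6 in EMPs, and was listed at 0 in the other 3. It was called higher against both EMPs and liver MCPs. Alox5ap, the activating protein of 5-lipoxygenase, read 108 FPKM in macrophage-labelled cells and 43.9 in EMPs. Alox5 read 12.7 and 4.64 FPKM in this pair, and neither was called. Ltc4s, leukotriene C4 synthase, did not exceed 0.5 FPKM.

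Transcription factors tied to eosinophil fate were uneven between the macrophage-labelled library and EMPs, with some nearly level, Gata2 called lower and Id2 called higher. Cebpe, C/EBP epsilon of granulocyte maturation, read 47.0 FPKM in the macrophage-labelled library, 2.83 in liver MCPs, 1.32 in limb MCPs at E11.5, 0 in limb MCPs at E14.5 and in skin cells, and 45.1 in EMPs. Spi1, which encodes PU.1, likewise stood at 99.1 FPKM in macrophage-labelled cells and 108 in EMPs, and at most 15.9 elsewhere. Both factors were called higher in macrophage-labelled cells against liver MCPs, and were nearly level against EMPs, where Prg2 differed 37.2-fold. Whether either factor bears on Prg2 was not tested. In its order of libraries Cebpe was like Prg3. Gata1, required for eosinophils in mice, read 4.36 FPKM in macrophage-labelled cells and 3.58 in EMPs, against 12.3 to 16.3 in liver and limb MCPs. Gata2 was called lower in the macrophage-labelled library (1.09 FPKM, against 10.98 in EMPs and 16.9 in liver MCPs). Xbp1, needed by maturing mouse eosinophils, read 35.5 FPKM in macrophage-labelled cells and 34.2 in EMPs, and Trib1, a regulator of C/EBP proteins, 12.9 and 4.7. Against liver MCPs, where it read 1.91 FPKM, Trib1 was called higher. Id2 was called higher against EMPs (10.1 against 0.64 FPKM) and was highest in skin cells (35.3).

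**Figure D4:**
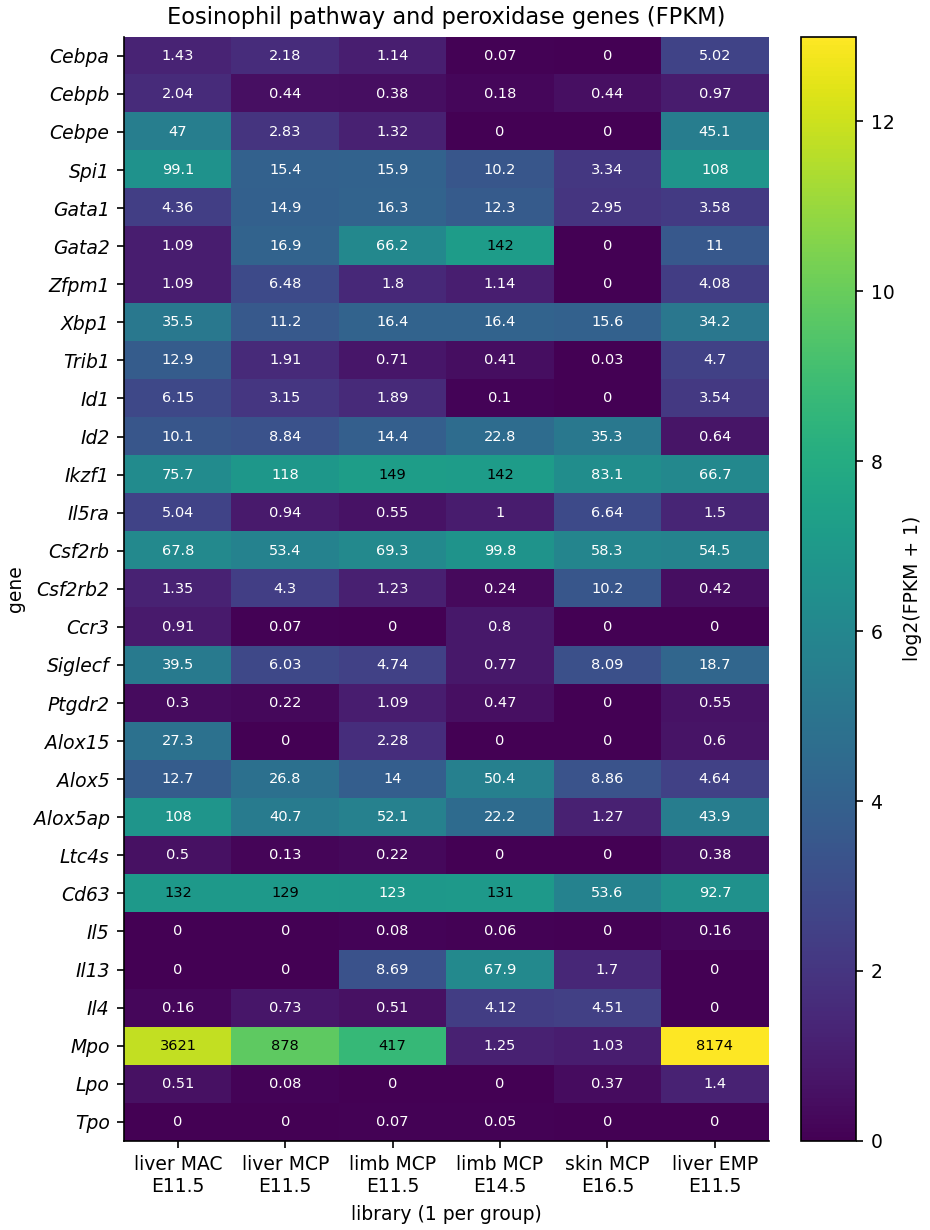
FPKM of 26 eosinophil pathway genes and 3 heme peroxidases (rows) in the 6 libraries (columns), each field printing its value and coloured by log2(FPKM + 1). Cebpe and Spi1 are level between the macrophage-labelled library (47.0 and 99.1 FPKM) and EMPs (45.1 and 108 FPKM), while Alox15 does not exceed 2.28 FPKM outside the macrophage-labelled library.

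Sequence just upstream of the members was read from RefSeq promoters of GRCm38.p6, which held 5 of the 8 genes. The RefSeq starts of Ear1 and Ear6 lie inside the gene spans given above from GENCODE. The 250 bases before the start are printed in the gene's own direction, because these genes peak in the same library. Capitals mark matches, on either strand, to GATAA (reverse TTATC), the core read by GATA factors, to TTGCNNAA (reverse TTNNGCAA), a pattern read by C/EBP factors, or to GAGGAA (reverse TTCCTC), a core read by PU.1. No match overlapped another.
Ear1, chr14:43819640-43819889, minus strand: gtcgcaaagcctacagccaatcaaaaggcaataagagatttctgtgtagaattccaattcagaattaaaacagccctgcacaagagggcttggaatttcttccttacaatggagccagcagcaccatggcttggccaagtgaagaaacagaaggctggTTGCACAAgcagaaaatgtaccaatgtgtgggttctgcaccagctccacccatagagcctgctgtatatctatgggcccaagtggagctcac
Ear2, chr14:44102404-44102653, plus strand: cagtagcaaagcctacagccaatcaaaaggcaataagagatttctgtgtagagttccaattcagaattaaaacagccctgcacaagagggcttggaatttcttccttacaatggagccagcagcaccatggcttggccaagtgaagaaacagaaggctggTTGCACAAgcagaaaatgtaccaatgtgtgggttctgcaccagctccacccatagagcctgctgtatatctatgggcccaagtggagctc
Ear6, chr14:51853518-51853767, plus strand: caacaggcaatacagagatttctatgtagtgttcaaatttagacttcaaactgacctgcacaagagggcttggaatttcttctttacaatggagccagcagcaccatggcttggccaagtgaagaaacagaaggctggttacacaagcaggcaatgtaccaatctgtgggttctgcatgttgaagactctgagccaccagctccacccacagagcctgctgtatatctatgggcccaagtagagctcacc
Prg3, chr2:84987965-84988214, plus strand: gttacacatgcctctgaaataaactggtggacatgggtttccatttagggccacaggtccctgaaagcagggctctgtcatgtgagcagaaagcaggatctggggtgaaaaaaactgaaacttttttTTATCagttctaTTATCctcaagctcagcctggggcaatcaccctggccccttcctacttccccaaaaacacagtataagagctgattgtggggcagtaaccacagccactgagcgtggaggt
Epx, chr11:87875537-87875786, minus strand: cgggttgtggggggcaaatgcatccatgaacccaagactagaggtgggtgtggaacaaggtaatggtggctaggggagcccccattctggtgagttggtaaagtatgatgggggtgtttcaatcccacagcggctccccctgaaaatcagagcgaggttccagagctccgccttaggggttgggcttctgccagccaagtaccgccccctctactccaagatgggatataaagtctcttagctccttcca
Ear1 and Ear2 each held 1 match to TTGCNNAA, and Prg3 held 2 to GATAA. Epx and Ear6 held no match in this window. Over all 32851 promoters of the table, 22.6% of such windows held GATAA, 9.56% TTGCNNAA and 23.3% GAGGAA. A match to GATAA or GAGGAA is thus common, and one to TTGCNNAA less so. The shares count windows with any match, so they give no background for 2 matches in 1 window. Ear1 and Ear2 have near-identical windows, so their matches do not count as separate. The Ear1 and Ear2 windows aligned at 99.2% identity and those of Ear6 with them at 92.6% and 93.0%. The Prg3 and Epx windows aligned with the Ear windows at 58.0% to 61.9%, and with each other at 58.2%. These percentages leave gaps out, and no level for unrelated windows was computed. Those of the Prg3 and Epx windows therefore show no shared sequence by themselves.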

How the data were processed

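RNA of sorted cells was extracted with TRIzol, and libraries were made and sequenced on Illumina HiSeq by the Beijing Genomics Institute, per the labels' protocols. The authors deposited FPKM values with 2 decimals, for which the submitters' processing notes name the build mm10 (GRCm38) and the tools Bowtie2 and RSEM. The sources used here give no versions. RSEM divides fragments shared by near-identical genes between them, so single Ear values are uncertain. Of 17913 rows, 4 with a repeated name were dropped. Each column matched 1 label. The members, lists and rules were chosen with earlier results of these data known.

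With 1 library per group, each pair was compared on the log2(FPKM + 1) scale, a difference being called at 2 or more (4-fold) where either library had an FPKM of at least 10. Fold values divide the FPKM as deposited, with no pseudocount added. Depth was estimated by finding the fragment number at which most FPKM become whole counts, in 1409 genes that GENCODE M21 gives a single transcript of 600 to 2500 bases, where 76.7% to 82.5% of values came within 0.2 of whole fragments (40% by chance). The estimate was tested only on simulated whole counts over the same transcript lengths, a simpler setting than that of the deposited values. Estimated fragments and floors of 3 fragments cover counting error only.

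Named genes were all members, the 10 genes most like Prg2 and Epx by Pearson's r, the 10 leading non-members by the ratio of FPKM + 1 in the macrophage-labelled library over the highest other library, and the fixed pathway, ribonuclease and peroxidase lists. Predicted genes were left out of the neighbours. Transcripts were aligned with Biopython 1.88 on Python 3.11.15. The promoter windows leave out the 50 bases after the start. Alternatives were pseudocounts of 0.1 and 5, no filter, an FPKM of at least 30, rescaling to equal sums (TPM), median-of-ratios scaling over 4580 genes, and the Ear genes summed.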

Additional observations from a re-analysis of the deposited data

How the results depend on the processing

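The count of members called in each comparison was recomputed under 7 alternatives. With the Ear genes summed, 4 of 4 signals were called in the macrophage-labelled library against EMPs and against liver MCPs, in place of 7 of 7, because fewer signals were counted. In liver MCPs against EMPs the call of Epx ended with a pseudocount of 5, which left 0. In limb against liver MCPs of E11.5, rescaling to equal sums (TPM) called 1, the signal of Ear3 and Ear12. In limb MCPs of E14.5 set against those of E11.5 the 3 calls became 1 with an FPKM of at least 30 and 6 under TPM, where more genes pass an equal minimum. Of 252 recomputed single-gene differences, 204 moved by no more than 1.5-fold and 48 by more, and 0 called values changed sign. The changes of filter (none, or at least 30 FPKM) cannot alter a difference, so the 42 values under each were fixed in advance. Moves of more than 1.5-fold came to 17 of 42 with a pseudocount of 0.1, 15 with 5 and 16 under TPM. Median-of-ratios scaling took the median over all genes that passed to −0.02 from −0.29 log2 in the macrophage-labelled library against EMPs, to 0.07 from −0.15 against liver MCPs, and to −0.37 from −1.42 in skin against limb MCPs at E14.5. No paired analysis was possible because every group held 1 library and the labels give no replicate numbers. Depth limits low values by transcript length: 3 fragments are worth 0.124 FPKM for Epx and 0.468 for Ear1 in skin cells, and no alternative stands in for a replicate.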

Other observations

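Other ribonuclease A family and related genes were read as a list of 19, of which 12 were in the table. Ear7 read 26.1 FPKM in the macrophage-labelled library, 0 in liver MCPs, 2.5 in limb MCPs at E11.5, 0 in limb MCPs at E14.5, 0.79 in skin cells and 0 in EMPs. Ear10 (5.88 FPKM) was above 0 in the macrophage-labelled library alone, and Rnase2a read 3.03 FPKM there and 0.24 in EMPs. Rnase2b read 10.98 FPKM in the macrophage-labelled library and 0.16 in limb MCPs at E11.5. Ear14 was at 0 in 5 libraries and at 0.2 FPKM in limb MCPs at E14.5.

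Family members that are not named for eosinophils had other patterns. Rnase6 was highest in limb MCPs at E11.5 (16.9 FPKM), with 4.42 in macrophage-labelled cells and 1 in EMPs. Rnase4 was highest in liver MCPs (6.82 FPKM), with 2.21 in macrophage-labelled cells and 0.8 in EMPs. Rnaset2a, a lysosomal ribonuclease of another family, lay between 25.5 and 74.0 FPKM in all 6 libraries. Its near-copy Rnaset2b was listed at 0 in the macrophage-labelled library and read up to 9.14 FPKM elsewhere. As with the Ear genes, the split of fragments between these near-copies is uncertain, so the listing at 0 does not show absence.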
